A study of Zea mays with 6 samples.

Results

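Class III peroxidases and laccases are the secreted oxidases that couple phenolic compounds in plant cell walls, and 161 of the 49785 genes in the count table of this maize (Zea mays) kernel study carry their names. Members are the protein-coding genes whose deposited description holds the word peroxidase followed by a number, or the word laccase, leaving out descriptions with ascorbate or glutathione. Of these, 141 matched as peroxidases and 20 as laccases. Descriptions join a gene name with the name of the closest annotated protein, so a name such as "Peroxidase 16" below is that of a best match, not of a shown counterpart. All 20 laccases list the 3 multicopper oxidase domains of the family. Among the peroxidases 133 list the peroxidase domain, 6 list no domain and 2 list only another domain. One of these last is LOC103638651, a homeodomain gene matched through the phrase "overexpressor of cationic peroxidase 3". The other is LOC103649988, a pentatricopeptide repeat gene that overlaps a peroxidase gene on the opposite strand. Both stay in the counts because the rule takes them. Counts over only the 133 peroxidases that list the domain are given beside the main ones. Those leave out both genes and also the 6 with no listed domain.

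Kernels were collected at 13 days after pollination from field-grown plants of a wild type (WT) and of the shrek1 mutant, and 3 libraries were made from each. Labels call the mutant Shrek1-/- and name no other allele, treatment or strain background. The pericarp was peeled off before RNA extraction, so each library holds endosperm and embryo together with whatever maternal tissue stayed on. Whether the 3 libraries of a genotype come from separate ears or plants is not stated in the labels, so p-values measure only the spread between these libraries, which may be technical.

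As background, class III peroxidases use hydrogen peroxide to turn phenols into radicals, and laccases do the same with oxygen through bound copper. The radicals join into lignin, link ferulate on the arabinoxylan of grass cell walls, and cross-link wall proteins. Peroxidases can also produce reactive oxygen that loosens walls. In cereal grains such enzymes are found in the aleurone, the embryo, the pericarp and the seed coat layers, and both families are large, with many copies lying close together on the chromosomes.

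Library totals ran from 17145006 to 20288565 counts, so a count of 0 allows up to 3 counts, or 0.141 to 0.185 CPM (counts scaled to library size). The genotypes were far apart: the first principal component of all genes tested held 87.4% of the variance and split them. The second held 4.09% and set shrek1 replicate 3 (-47.0) apart from the other shrek1 libraries (15.4 and 29.2). Results that rest on that library are given with and without it. The gene disrupted in shrek1 was not matched to a gene of the table, so the genotype labels were not checked by it. Some sets of cell type markers moved with genotype too. Over all genes tested, 32.0% were higher and 32.4% lower in shrek1 at an edgeR adjusted p under 0.05. Of 26 embryo marker genes such as oleosins and globulins, 9 had no count in any library and 15 of the 16 tested were lower in shrek1. Their summed level was 10277 to 12858 CPM in WT and 163 to 193 CPM in shrek1, a 62.4-fold lower mean. Starchy endosperm markers, mostly zeins, were lower in 32 (68.1%) and higher in 6 (12.8%) of 47, with a 2.37-fold lower sum. Basal endosperm transfer layer markers were higher in 2 of 7 (28.6%), near the share of all genes, and the other 5 did not pass. They summed to 154 to 167 CPM in WT and 239 to 312 CPM in shrek1. Most of that sum came from LOC100382777 (means of 123 and 213 CPM), whose only listed domain is an RNA recognition motif. Of 6 aleurone markers 3 were higher and 3 lower, with sums of 396 to 446 and 838 to 1064 CPM. Green tissue markers, which young pericarp would carry, were higher in 6 (30%) and lower in 7 (35%) of 20 tested. These shares are near those of all genes, and log2 fold changes ran from -4.69 to 3.58. Green tissue markers summed to 104 to 116 CPM in WT and 91.7 to 99.5 CPM in shrek1. In bulk RNA, fewer cells of a type and less RNA per cell cannot be told apart.

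Most members were silent or nearly so in these kernels. No count was found for 50 of them, 44 peroxidases and 6 laccases. Another 64 had counts but too few for the test, with library-summed totals of 1 to 90 (median 8.0) for 56 peroxidases and 1 to 20 (median 5.0) for 8 laccases. That left 41 peroxidases and 6 laccases among the 22681 genes tested with edgeR's quasi-likelihood test, in which "rose" and "fell" mean an adjusted p under 0.05. Genes without any count numbered 16047 of all 49785, a share close to that of 50 among the 161 members. Silence alone thus did not set the members apart from other genes. A smaller share of the members than of all genes had enough counts for the test.

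The peroxidases were dominated by a few genes that were at least as high in the mutant, while the laccases most abundant in WT had no count in the mutant. Summed over all 141 genes, peroxidase reads made up 1260, 1082 and 975 normalised CPM in WT replicates 1 to 3 and 1580, 1272 and 1442 CPM in shrek1 replicates 1 to 3. The highest WT library and the lowest shrek1 library were thus almost level, and the ratio of means was 1.29 in favour of shrek1, or 0.37 on the log2 scale. That sum depends on the scaling: with library size alone it was 0.09. Laccase reads summed over all 20 genes to 13.7, 15.1 and 13.5 CPM in WT and to 3.13, 2.35 and 3.14 CPM in shrek1, a 4.91-fold lower mean with no overlap. These sums were not tested. Every shrek1 library lay below every WT library for laccases by more than the spread within either genotype.

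**Figure D1:**
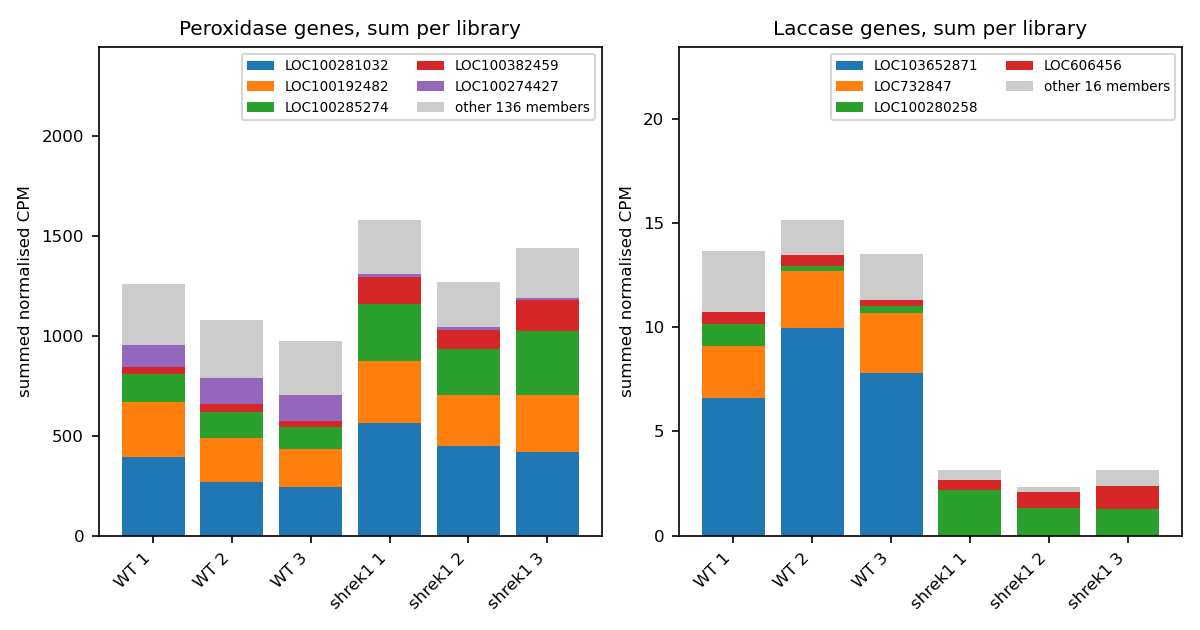
Summed normalised CPM of the peroxidase genes (left) and laccase genes (right) in each of the 6 libraries, as stacked bars from 0 with the most abundant members in colour. Peroxidase bars are of similar height (975 to 1580 CPM) with a different make-up, whereas laccase bars are 13.5 to 15.1 CPM in WT and 2.35 to 3.14 CPM in shrek1.

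Counted over genes, 11 of the 41 tested peroxidases were higher in shrek1 (26.8%) and 15 were lower (36.6%). Over all genes tested, 32.0% were higher, 32.4% were lower and 64.4% passed in either direction. These shares for peroxidases are near those of the whole table, and their median log2 fold change of -0.06 lies beside -0.01 for all genes tested. At least 4-fold differences were found for 2 higher (4.88%) and 10 lower (24.4%) peroxidases, where 3.80% and 10.1% of all genes tested passed that mark. Of the 10 lower ones 4, and of the 2 higher ones 0, had passed the count filter in both genotypes. Of the 41, 11 passed the count filter through WT alone and 4 through shrek1 alone, a step that favours genes that differ; 7 of those 11 fell and 3 of those 4 rose. Among the 25 that passed in both genotypes 8 were higher, 8 lower and 9 not past the threshold. Taking only peroxidases with the listed domain gave 10 higher and 11 lower of 36, and leaving out genes that overlap another gene gave 11 and 13 of 39. Without shrek1 replicate 3 the counts were 9 higher and 16 lower.

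**Figure D2:**
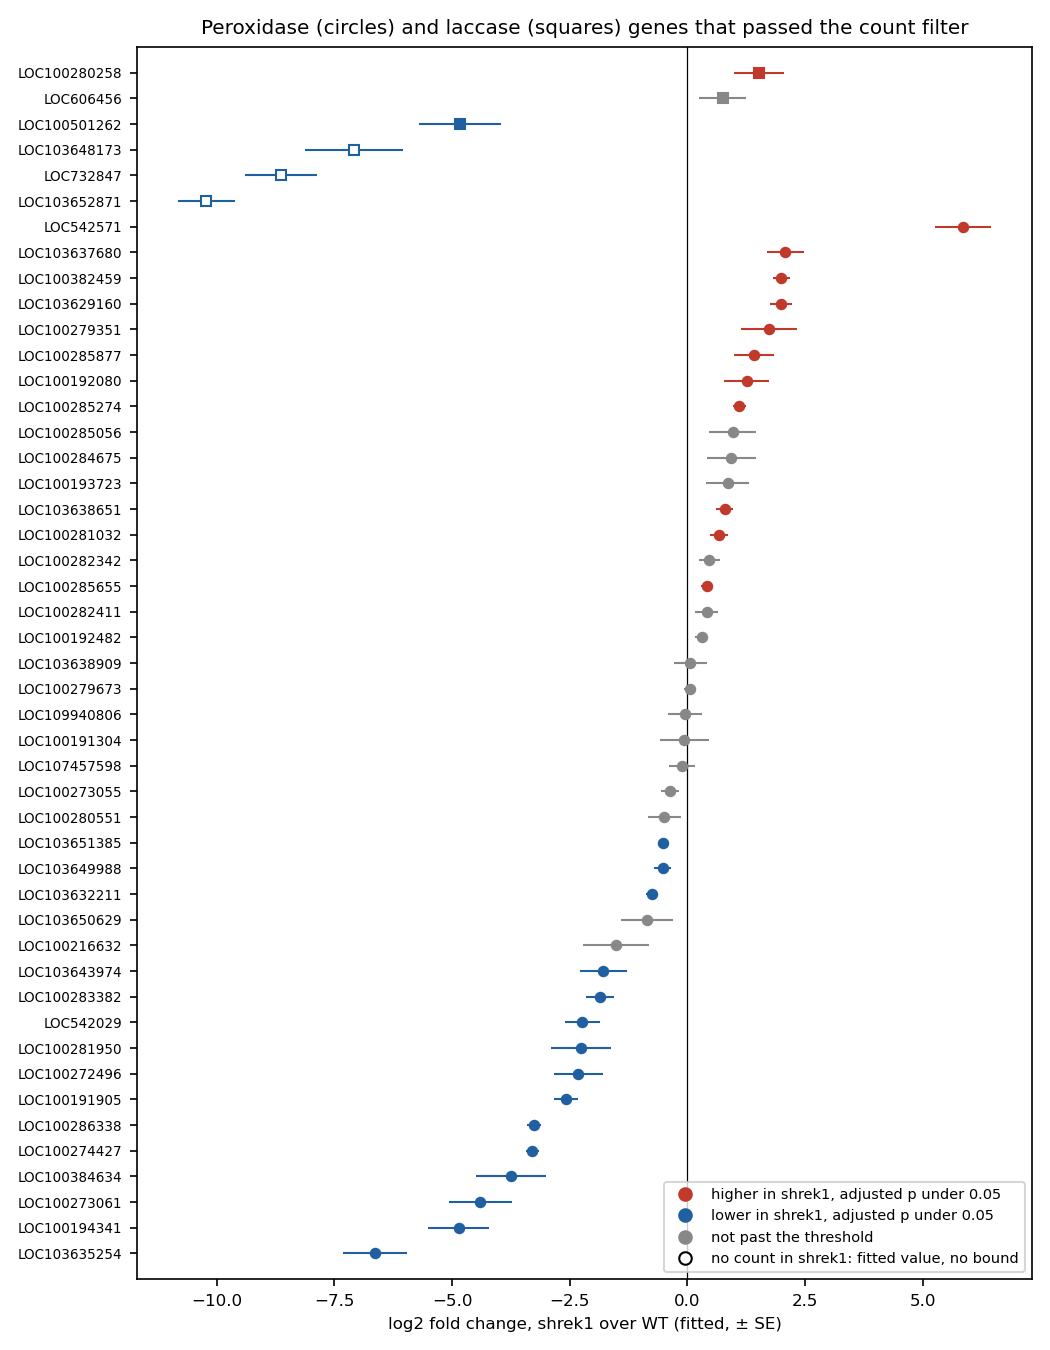
Fitted log2 fold change of shrek1 over WT with its standard error (bars) for the 41 peroxidase and 6 laccase genes that passed the count filter, 3 libraries per genotype. Peroxidases spread to both sides, 11 past the threshold above 0 and 15 below, while 4 of 6 laccases lie far below 0; open symbols have no count in shrek1 and their fitted values are not bounds.

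Compared per gene length, in the authors' FPKM (fragments scaled to gene length and library size), the same 3 peroxidases led in both genotypes. LOC100281032, best match Peroxidase 24, was the most abundant in WT at 215 ± 52.6 FPKM (SD, n = 3). LOC100192482, best match Peroxidase 55, followed at 154 ± 27.1 FPKM, which overlaps the former within 1 SD. LOC100285274, named peroxidase 68, came next at 109 ± 10.5 FPKM, and LOC100274427, best match Peroxidase 16, had 95.2 ± 9.99 FPKM; these last also overlap within 1 SD. In shrek1 the leaders stood at 337 ± 54.4 FPKM for LOC100281032, 229 ± 34.7 for LOC100285274 and 186 ± 17.3 for LOC100192482, of which the latter pair overlap. Below them the order changed: LOC100274427 dropped from rank 4 to rank 11 at 9.50 ± 1.82 FPKM, and LOC100382459 moved from rank 9 to rank 4 at 65.9 ± 14.4 FPKM. The leading 3 together held 61.8% of all peroxidase FPKM in WT and 76.0% in shrek1. Without them the other 138 genes summed to 450, 462 and 428 CPM in WT and 422, 339 and 419 CPM in shrek1. At least 1 FPKM in every library was reached by 23 peroxidases in WT, 21 in shrek1 and 18 in both.

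**Figure D3:**
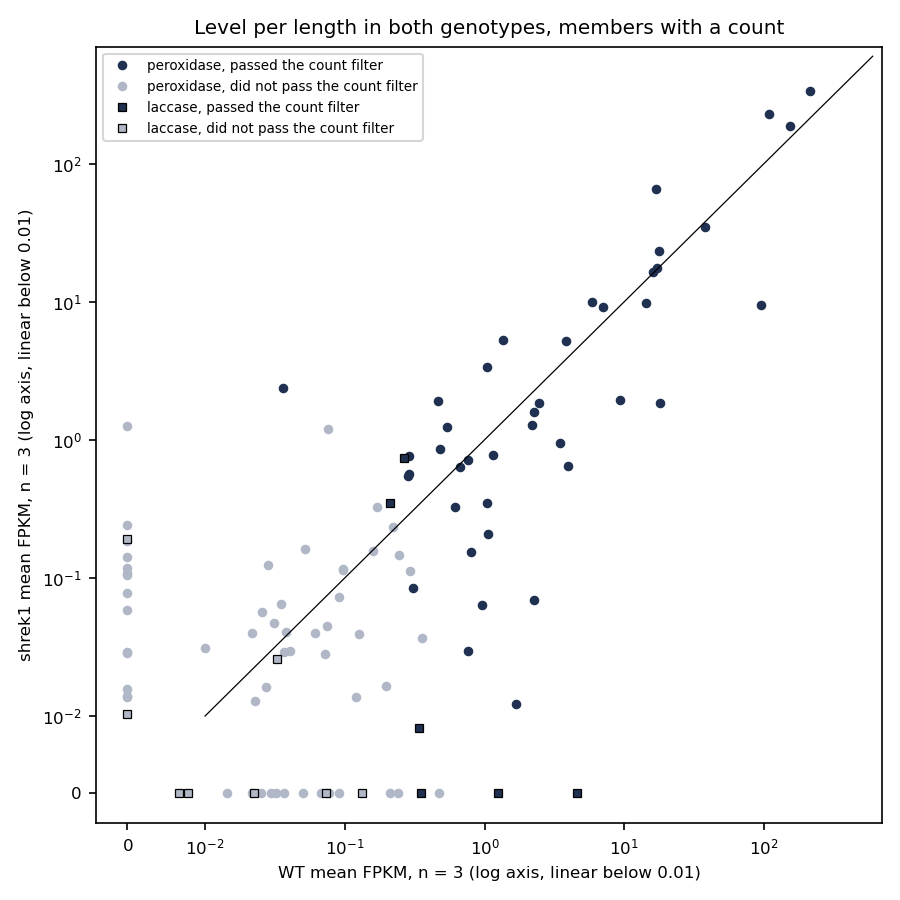
Mean FPKM in shrek1 against mean FPKM in WT (3 libraries each, log axes with a linear stretch near 0) for every member with a count, peroxidases as circles and laccases as squares, with the line of equal level. The leading 3 peroxidases lie at the upper right, LOC100274427 is the abundant gene far below the line (95.2 against 9.50 FPKM), and the laccases lie mostly along the bottom, at 0 in shrek1.

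Among members matched as peroxidases with a mean above 5 CPM in shrek1, 6 rose, by 1.33-fold to 3.97-fold. LOC100281032 lies on chromosome 3 at 41770683 to 41772590, minus strand. It had 391, 268 and 242 CPM in WT and 566, 448 and 421 CPM in shrek1, so the groups did not overlap although WT replicate 1 came near. Its log2 fold change was 0.67 ± 0.19 (SE, edgeR adjusted p = 0.0124), which with scaling by library size alone was 0.40 and no longer past the threshold. LOC100285274 (chromosome 8, 24268898 to 24270314, plus strand), whose best match is the turnip peroxidase P7, had 142, 130 and 115 CPM in WT and 282, 231 and 319 CPM in shrek1. All shrek1 libraries were well above all WT libraries, and the log2 fold change was 1.10 ± 0.13 (edgeR adjusted p = 3.71e-05).

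LOC100382459 showed the steepest rise among abundant members. This gene on chromosome 1 (286380116 to 286382781, plus strand) is named Peroxidase 73, with Peroxidase 35 as best match. Arabidopsis PER73, which shares its name but is not its best match, is known for a part in root hair growth. Levels were 31.6, 38.5 and 29.2 CPM in WT and 137, 99.3 and 158 CPM in shrek1, with a wide gap between the groups. The log2 fold change was 1.99 ± 0.18 (edgeR adjusted p = 1.54e-05). LOC103629160, peroxidase 43 on chromosome 6 (31197847 to 31199558), rose by the same factor at a lower level, from 1.61, 2.45 and 1.79 CPM to 9.44, 6.68 and 7.20 CPM (1.99 ± 0.24, edgeR adjusted p = 4.24e-05). A smaller rise was seen for LOC100285655, best match Peroxidase 65, at 24.5, 25.6 and 20.2 CPM in WT and 29.2, 30.4 and 34.1 CPM in shrek1. Its groups are close, and the call (0.42 ± 0.12, edgeR adjusted p = 0.0110) was lost with library size alone (0.13), with an offset for gene length (0.27) and without WT replicate 3 (0.26). The homeodomain gene LOC103638651, whose Arabidopsis match is a regulator of defence responses and no peroxidase, had 8.69, 7.46 and 7.31 CPM in WT and 13.3, 11.0 and 16.2 CPM in shrek1 (0.79 ± 0.17, edgeR adjusted p = 0.00226).

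Other abundant peroxidases did not pass the threshold. LOC100192482 (chromosome 1, 198924981 to 198927839) had 277, 222 and 190 CPM in WT and 310, 254 and 284 CPM in shrek1, and its groups overlapped. Its log2 fold change of 0.30 ± 0.14 did not pass (edgeR adjusted p = 0.0808), but passed without WT replicate 1 (0.38). LOC107457598, a second gene named Peroxidase 24 (chromosome 8, 3640515 to 3642839), had 56.0, 44.5 and 47.6 CPM in WT and 63.0, 46.7 and 27.8 CPM in shrek1. The shrek1 libraries spread over more than the WT range in both directions. Its log2 fold change was -0.11 ± 0.28 (edgeR adjusted p = 0.757) and turned to 0.16 without shrek1 replicate 3, the lowest library. LOC103638909 (peroxidase 57) and LOC100279673 (best match Peroxidase 70), both among the 10 most abundant in each genotype, were near 0 as well (0.06 ± 0.35 and 0.06 ± 0.13), and their sign turned with scaling by library size alone (-0.21 and -0.23). Over the 15 tested peroxidases that did not pass, log2 fold changes ran from -1.52 in LOC100216632 to 0.96 in LOC100285056.

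The peroxidases that fell included the clearest changes of the family. Both genes with Peroxidase 16 as best match, and no other member carries that match, fell about 10-fold. LOC100274427 (chromosome 2, 4440059 to 4442669, plus strand) had 113, 132 and 130 CPM in WT and 15.4, 12.0 and 10.7 CPM in shrek1. Its log2 fold change was -3.30 ± 0.14 (edgeR adjusted p = 6.61e-08), the smallest adjusted p among the peroxidases. LOC100286338 (chromosome 5, 55194670 to 55197525, plus strand) had 27.7, 29.7 and 28.1 CPM in WT and 3.42, 2.91 and 2.57 CPM in shrek1 (-3.26 ± 0.14, edgeR adjusted p = 7.29e-08). In each gene the 3 libraries of a genotype lay close together and far from the other genotype, and the 9.82-fold and 9.60-fold decreases were nearly equal although the WT means were 125 and 28.5 CPM.

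Other moderately expressed peroxidases fell less steeply. LOC542029 is the maize gene with the reference synonyms pmPOX1 and PRX1, a name given to peroxidases of the root plasma membrane; it lies on chromosome 3 at 59589077 to 59596591. It had 10.7, 14.8 and 16.6 CPM in WT and 1.74, 2.10 and 5.08 CPM in shrek1. Shrek1 replicate 3 was the highest mutant library and still below WT, and the log2 fold change was -2.23 ± 0.37 (edgeR adjusted p = 0.000903), or -2.86 without that library. LOC100191905, named Peroxidase 64 with Peroxidase 5 as best match (chromosome 1, 4672172 to 4675727), fell from 5.70, 7.06 and 9.01 CPM to 1.33, 1.17 and 1.14 CPM (-2.57 ± 0.25, edgeR adjusted p = 9.58e-06). LOC100283382, peroxidase 39 (chromosome 5, 49269753 to 49273151), fell from 5.98, 6.11 and 4.43 CPM to 1.45, 0.989 and 2.11 CPM (-1.85 ± 0.30, edgeR adjusted p = 0.000309). LOC103632211, named peroxidase 1 but with no listed domain, fell from 18.7, 16.1 and 16.4 CPM to 9.20, 10.4 and 10.8 CPM (-0.75 ± 0.13, edgeR adjusted p = 0.000521).

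For a further pair of falling genes the strand matters. LOC103651385, peroxidase 19 on chromosome 3, had 24.2, 28.8 and 25.8 CPM in WT and 18.0, 19.1 and 17.7 CPM in shrek1 (-0.53 ± 0.11, edgeR adjusted p = 0.00173). LOC103649988, the pentatricopeptide repeat gene, had 5.54, 7.41 and 6.74 CPM in WT and 4.17, 4.88 and 4.63 CPM in shrek1 (-0.53 ± 0.19, edgeR adjusted p = 0.0308), a call lost when any library but WT replicate 1 was left out (-0.57 to -0.44), with the gene length offset (-0.22) and in both limma fits on FPKM (-0.27 and -0.49). Each overlaps a gene on the opposite strand, as do 6 members in all. The library kit keeps strand, but the labels do not state how the counting used it, so reads of the overlapping partners may not be told apart. In the same mutant libraries the embryo marker sum was 62.4-fold lower and the starchy endosperm marker sum 2.37-fold lower. Their part in the lower peroxidases was not tested.

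**Figure D4:**
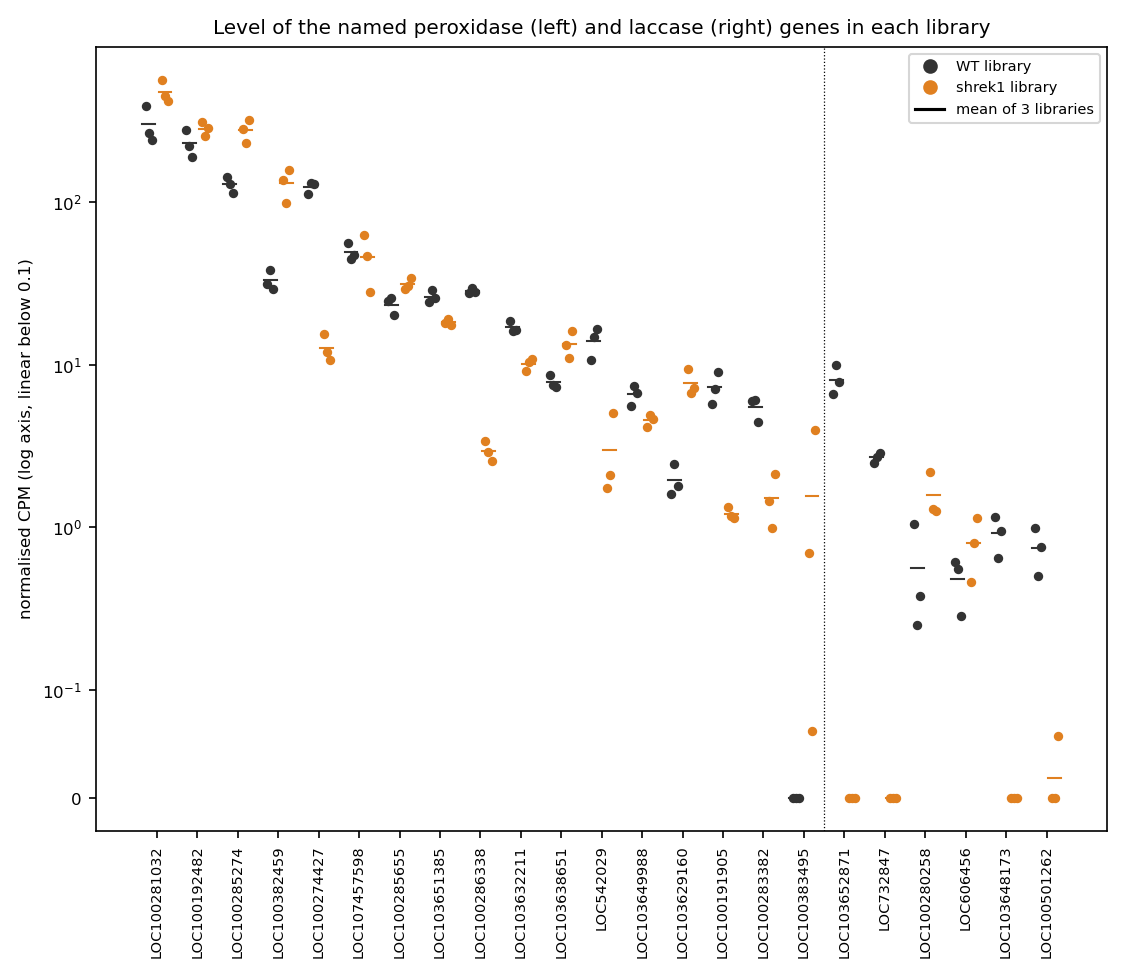
Normalised CPM per library (log axis, linear below 0.1) for the named peroxidases (left of the dotted line) and laccases (right), WT in black and shrek1 in orange, with the mean of 3 libraries as a bar. LOC100274427 and LOC100286338 show tight groups about 10-fold apart, while LOC103652871, LOC732847 and LOC103648173 have points in WT and lie at 0 in every shrek1 library.

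Several weakly expressed peroxidases are described here and below, of which only some were near 0 in 1 genotype. Apart from LOC100383495 they were named after their values were seen. Of these, LOC542571, LOC103637680 and LOC100192080 had passed the count filter through shrek1 alone, a step that favours genes that differ. LOC542571, with the reference synonyms pmPOX2 and PRX2 (chromosome 1, 63807852 to 63809329), had 0, 2 and 1 counts in WT and 77, 45 and 48 counts in shrek1. It rose (edgeR adjusted p = 1.18e-05), and the ratio of normalised totals was 65.9 in favour of shrek1, with a 95% counting interval of 22.2 to 323. It thus went the opposite way to LOC542029, the other gene with a pmPOX synonym described above. LOC103637680, a second gene named peroxidase 57 (chromosome 1, 97630742 to 97633527), rose from 20, 18 and 7 counts to 55, 54 and 58 counts (2.08 ± 0.40, edgeR adjusted p = 0.000984). Arabidopsis PER57 is known as a peroxidase of the growing root tip. LOC100285877, peroxidase 56, rose from 16, 10 and 17 counts to 28, 21 and 51 (1.41 ± 0.43, edgeR adjusted p = 0.0142), a call lost without WT replicate 2 (1.20) or shrek1 replicate 3 (1.01). LOC100192080, best match Peroxidase 39, had 13, 19 and 8 counts in WT and 34, 14 and 36 in shrek1, with overlapping groups (1.26 ± 0.47, edgeR adjusted p = 0.0382). That call was lost with library size alone (0.97), with the gene length offset (1.10), with the replicate number as a block (1.23) and when any of 4 libraries was left out, WT replicates 1 (1.22) and 3 (0.90) and shrek1 replicates 1 (1.11) and 3 (1.07).

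In the other direction, LOC103635254, named for Peroxidase 72, which in Arabidopsis has a part in stem lignin formation, had 60, 47 and 47 counts in WT and 1, 0 and 0 in shrek1 (chromosome 8, 61005964 to 61008525). It fell (edgeR adjusted p = 1.32e-05) with a ratio of normalised totals of 132 in favour of WT (95% counting interval 23.4 to 5266). LOC100194341, whose best match is the cationic peroxidase SPC4 purified from sorghum grain, had 43, 47 and 92 counts in WT and 1, 0 and 4 in shrek1 (-4.86 ± 0.65, edgeR adjusted p = 8.75e-05). LOC100384634 is named for Peroxidase 64, which in Arabidopsis works in lignin deposition at the Casparian strip. It had 35, 31 and 16 counts in WT and 1, 0 and 4 in shrek1 (-3.76 ± 0.74, edgeR adjusted p = 0.00124). These 3 genes had passed the count filter through WT alone, a step that favours genes that differ, as had the gene that follows. A last lower gene, LOC100272496 (best match Peroxidase 70), had 22, 22 and 15 counts in WT and 5, 3 and 2 in shrek1 (-2.32 ± 0.53, edgeR adjusted p = 0.00289).

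Single libraries carried some of the low-count values. LOC100279351, best match Peroxidase 42 (chromosome 2, 26292976 to 26294295), had 30, 30 and 20 counts in WT and 56, 26 and 153 in shrek1, so replicate 3 stood out and the groups overlapped. Its log2 fold change of 1.73 ± 0.59 (edgeR adjusted p = 0.0306) was 0.84 and not past the threshold without that library. That call was also lost when any WT library was left out (1.46 to 1.81), with the replicate number as a block (1.47), with no filter on low counts (1.73) and in both limma fits on FPKM (0.92 and 1.32). Its chromosomal neighbour LOC100194034, too low for the test, had 0, 4 and 2 counts in WT and 20, 5 and 59 in shrek1, again highest in replicate 3. LOC100383495, best match Peroxidase 4 (chromosome 6, 110332214 to 110334435), had no count in WT and 12, 1 and 69 in shrek1. That is at least 10.3-fold higher in shrek1 against a floor of 3 counts per library, and most of it came from replicate 3, without which the bound is at least 2.48-fold. Over all 141 peroxidases, 14 had counts in WT and none in shrek1, and 14 had counts in shrek1 and none in WT, all of them below the count filter.

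Groups of peroxidases with the same best match held few tested genes and are only described. Of 15 members with a Peroxidase 5 match 6 had no count and 3 were tested, with 2 lower. LOC100281950 among them had 27, 21 and 31 counts in WT and 2, 1 and 11 in shrek1. The largest group, 22 members matching Peroxidase 2, had 12 without any count and 2 tested. Of the 2 tested, LOC542571 was higher and LOC103643974 lower (14, 14 and 17 counts against 4, 2 and 5). LOC100281950 and LOC103643974 had passed the count filter through WT alone, and LOC542571 through shrek1 alone. A set of 13 members matching the rice Peroxidase 1 had 4 tested, with log2 fold changes of -0.50 to 0.93 and adjusted p above the threshold for each. Genes with a Peroxidase 24 or Peroxidase 57 match split into a member that rose and a member that did not pass.

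Many peroxidases lie beside each other, and detection was counted with and without such neighbours. Another peroxidase lay within 100 kb of 65 members, in 24 groups, and 39 of these (60.0%) had counts and 10 (15.4%) were tested. Of the 76 without such a neighbour, 58 (76.3%) had counts and 31 (40.8%) were tested. The difference between these shares was not tested. The largest group, 9 genes on chromosome 7 between 177840758 and 178096465, had counts in 4 genes, with 6 counts in all WT libraries and 25 in all shrek1 libraries. Reads that fit several near-identical copies may be lost or split by the counting, so low counts in such groups are uncertain. In LOC100273061 and LOC100285056 on chromosome 8 (38798727 to 38864712) neighbours differed. LOC100273061 had 17, 20 and 20 counts in WT and 1, 0 and 1 in shrek1, a ratio of 24.5 in favour of WT (95% counting interval 6.48 to 207, edgeR adjusted p = 0.000233). LOC100285056 had 6, 4 and 12 counts in WT and 13, 11 and 13 in shrek1 (0.96 ± 0.50, edgeR adjusted p = 0.112). LOC100273061 had passed the count filter through WT alone and LOC100285056 through shrek1 alone, a step that favours genes that differ. The difference between these neighbours was not tested.

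Laccases were far scarcer than peroxidases, and the genes that supplied most laccase reads in WT had none in shrek1. Of 6 tested, 4 fell, 1 rose and 1 did not pass, beside 32.4% lower and 32.0% higher over all genes tested. All 4 that fell had passed the count filter through WT alone, a step that favours genes that differ. At least 1 FPKM in every library was reached by 2 laccases in WT, and by no laccase in shrek1. LOC103652871, laccase-25 (chromosome 4, 15757576 to 15759632, plus strand), was the most abundant, with 119, 199 and 165 counts in WT and 0 in each shrek1 library. It fell (edgeR adjusted p = 1.64e-06), from 8.11 ± 1.71 CPM (SD, n = 3) in WT, and was at least 45.9-fold lower in shrek1 against the floor of 3 counts per library. LOC732847, the gene with the synonym lac5 (chromosome 3, 185593141 to 185595800, minus strand), had 45, 54 and 61 counts in WT and 0 in each shrek1 library, at least 15.2-fold lower (edgeR adjusted p = 1.84e-05).

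Laccase-15 is the best match of 4 genes, of which the 2 that were tested also fell, at lower counts. LOC103648173 (chromosome 2, 236255966 to 236258720) had 21, 13 and 20 counts in WT and 0 in each shrek1 library, at least 5.20-fold lower (edgeR adjusted p = 0.000397). LOC100501262 (chromosome 4, 5277658 to 5280216) had 18, 10 and 16 counts in WT and 0, 0 and 1 in shrek1, a ratio of 37.9 in favour of WT (95% counting interval 6.45 to 1529, edgeR adjusted p = 0.000684). An untested gene with this match, LOC100280281, had 3, 5 and 1 counts in WT and none in shrek1, and the last, LOC118476850, had 1 count in all. All 4 falling laccases had passed the count filter through WT alone, so about 10 or more counts in every WT library was a condition of entry. No shrek1 library had more than 1 count of any of them. The embryo marker sum was 62.4-fold lower in the same mutant libraries, and its part in the lower laccases was not tested.

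The remaining laccases did not follow. LOC100280258 (chromosome 8, 175253857 to 175257138), best match Laccase-4, had 19, 5 and 8 counts in WT and 38, 21 and 22 in shrek1. WT and mutant values lay close together, with WT replicate 1 just under the lowest shrek1 library. LOC100280258 had passed the count filter through shrek1 alone, a step that favours genes that differ. Its log2 fold change of 1.52 ± 0.53 passed (edgeR adjusted p = 0.0283), but not with library size alone (1.25), without WT replicate 2 (1.16), without WT replicate 3 (1.25) or without shrek1 replicate 1 (1.21). LOC606456, Laccase-7 with the synonym LAC1 (chromosome 3, 184155708 to 184159486), had 11, 11 and 6 counts in WT and 8, 13 and 20 in shrek1, with overlapping groups (0.75 ± 0.51, edgeR adjusted p = 0.220). Of the laccases too low for the test, LOC103631856, laccase-14, had no count in WT and 5, 3 and 12 in shrek1, at least 2.53-fold higher, or at least 1.56-fold without shrek1 replicate 3. LOC732787, with the synonym lac4, had 3, 5 and 8 counts in WT and none in shrek1. Over all 20 genes, 8 had counts in WT alone and 2 in shrek1 alone. Of the 8, LOC100502492, LOC118476850 and LOC103627746 had only 3, 1 and 1 counts. Of the 2, LOC100191779 had 1 count. Such splits over all genes of the table were not counted.

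Enzymes that make the substrates of these oxidases moved in both directions. Over all genes tested, 32.4% fell and 32.0% rose. Of 58 tested genes of monolignol synthesis, the pathway that builds lignin precursors from phenylalanine, 28 fell (48.3%) and 14 rose (24.1%). The median log2 fold change was -0.29, and the summed level was 911 to 960 CPM in WT and 863 to 1062 CPM in shrek1. With library size alone 9 were higher. The most abundant lower gene, the cinnamyl alcohol dehydrogenase gene LOC100191885, had 68.5, 88.9 and 77.6 CPM in WT and 1.85, 0.433 and 3.43 CPM in shrek1 (-5.34 ± 0.45, edgeR adjusted p = 5.33e-05). The most abundant higher gene, LOC100285908, with 66.1, 65.5 and 51.5 CPM in WT and 243, 223 and 295 CPM in shrek1 (2.06 ± 0.14, edgeR adjusted p = 6.45e-07), has an oxalate-CoA ligase as best match and entered the list through its description.

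Dirigent proteins steer the coupling of phenol radicals into lignans. Of 17 tested, 11 fell (64.7%, beside 32.4% of all genes) and 2 rose (11.8%, beside 32.0%), the median log2 fold change was -2.79, and 7 had passed the count filter through WT alone. LOC100191141, a gene named jasmonate-induced protein, had 596, 696 and 613 CPM in WT and 2.95, 2.16 and 2.86 CPM in shrek1 (-7.89 ± 0.15, edgeR adjusted p = 2.58e-09). The description of LOC100191141 lists a jacalin-like lectin domain beside the dirigent domain, and its part in phenol coupling was not tested. It held a mean of 635 CPM in WT, where all 41 genes of the list summed to a mean of 1276 CPM. In the opposite direction LOC100285699, best match Dirigent protein 1, rose from 5.76, 4.31 and 1.89 CPM to 33.3, 22.9 and 50.05 CPM (3.17 ± 0.44, edgeR adjusted p = 0.000696). Both changes were larger than the spread within either genotype. The description of LOC100285699 also lists a reverse transcriptase domain beside the dirigent domain, and which part of the gene its reads came from was not tested.

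Genes of possible hydrogen peroxide sources were also mixed. They were picked by description, whatever the place of the enzyme in the cell. Whether they supply the secreted peroxidases was not tested. Of 10 tested NADPH oxidase genes, which produce superoxide at the cell surface, 5 were lower (50%, beside 32.4% of all genes) and the other 5 did not pass, with a median of -0.69. LOC100502415, best match respiratory burst oxidase E, fell from 197, 131 and 109 CPM to 49.5, 48.0 and 61.1 CPM (-1.46 ± 0.22, edgeR adjusted p = 0.000604). Among 27 other possible sources (germin-like proteins, oxalate, polyamine and amine oxidases, superoxide dismutases) 12 fell (44.4%) and 8 rose (29.6%), and the median was -0.14. The polyamine oxidase gene LOC100191603 rose from 347, 316 and 309 CPM to 745, 659 and 831 CPM (1.20 ± 0.11, edgeR adjusted p = 6.65e-06). LOC100383438, a copper amine oxidase gene, fell from 260, 220 and 208 CPM to 166, 148 and 116 CPM (-0.68 ± 0.14, edgeR adjusted p = 0.00147).

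The relatives of laccase without its name, mostly ascorbate oxidases of the cell wall, fell in 5 (45.5%) and rose in 1 (9.09%) of 11 tested, beside 32.4% and 32.0% of all genes, and the median was -1.27. LOC100273169 fell from 64.8, 78.6 and 62.3 CPM to 7.29, 6.43 and 9.31 CPM (-3.16 ± 0.15, edgeR adjusted p = 1.21e-07), and LOC100382137 rose from 1.72, 1.00 and 1.46 CPM to 3.59, 2.10 and 3.37 CPM (1.12 ± 0.33, edgeR adjusted p = 0.0128). Casparian strip proteins and their relatives, membrane proteins of which some hold peroxidases in place for local lignin deposition, rose in 7 (28.0%) and fell in 8 (32.0%) of 25 tested, near the shares of all genes, and the median was 0.16. With library size alone 2 of them were higher, and with an offset for gene length 3. LOC103627719, named Casparian strip membrane protein 3, rose from 16.9, 11.6 and 6.70 CPM to 28.7, 29.4 and 58.3 CPM (1.73 ± 0.41, edgeR adjusted p = 0.00883). LOC100192537, a relative of that family, fell from 79.2, 109 and 76.3 CPM to 15.7, 13.2 and 15.1 CPM (-2.59 ± 0.15, edgeR adjusted p = 3.69e-07).

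**Figure D5:**
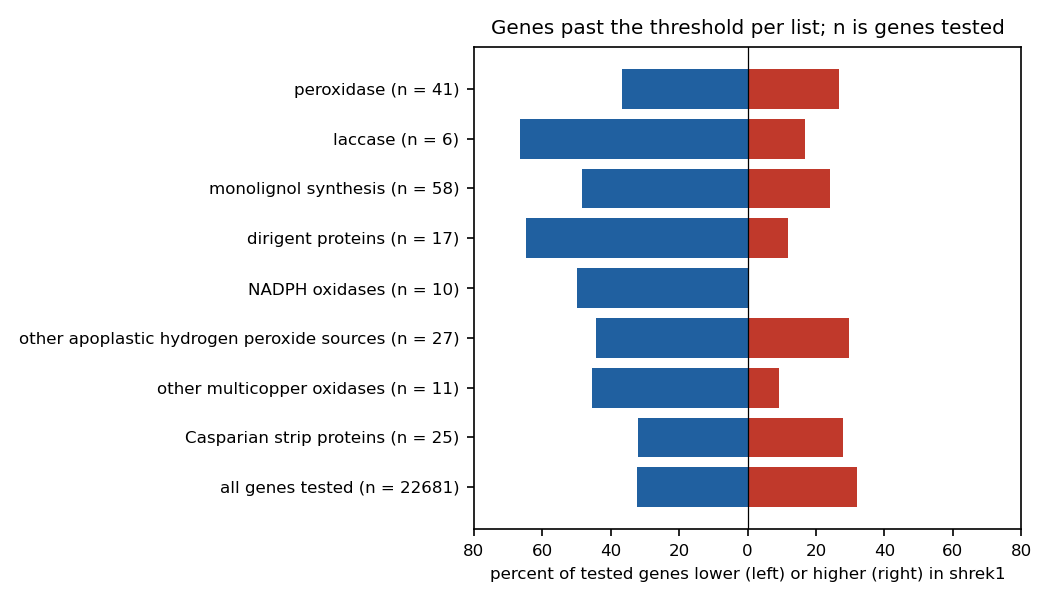
Percent of the tested genes of each list that were lower (bars to the left) or higher (bars to the right) in shrek1 at an edgeR adjusted p under 0.05, with the number tested, and all 22681 genes tested at the bottom. Peroxidases (36.6% lower, 26.8% higher) lie near all genes tested (32.4% and 32.0%), and among the lists drawn the longest bars to the left are those of laccases (66.7% of 6) and dirigent proteins (64.7% of 17), of which 4 and 7 genes had passed the count filter through WT alone.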

How the data were processed

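RNA was measured in 6 kernel libraries (WT and shrek1, 3 each), grouped by the labels' genotype. The authors deposited raw counts per gene and FPKM values; HISAT2 2.0.5 and featureCounts 1.5.0-p3 are named in the submitters' processing notes, without roles; no genome build was given in the sources used here. The deposited FPKM equal the counts divided by gene length and 1 size per library. Coordinates are those of the deposited table. Synonyms come from RefSeq's gene table (assembly Zm-B73-REFERENCE-NAM-5.0), where 160 of 161 members were found.

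Counts were filtered (filterByExpr, minimum count 10), scaled with TMM factors (0.864 to 1.16) and compared with edgeR 4.0.16 in R 4.3.3 (quasi-likelihood test, robust, two-sided, Benjamini-Hochberg adjustment over 22681 genes, threshold 0.05). CPM are TMM-normalised; SE were derived from the fold change and F value. The test was checked on simulated data with few changed genes, as many raised as lowered. That check does not cover data such as these, where 64.4% of genes tested passed. Alternatives used DESeq2 1.42.0, limma 3.58.1 on log2(FPKM + pseudocount 1 or 0.1), other scalings and filters, a gene length offset, a replicate block and leaving out each library. Reads carry no molecular identifiers, so intervals and floors (3 counts per library) cover counting error only.

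Named were the 10 higher and 10 lower called members with the largest changes and at least 5 CPM, the 5 most abundant per genotype, tested laccases, members without counts in a genotype and at least 1 CPM in the other, and per related list the most abundant higher and lower gene. The members and lists were chosen with earlier results of these data known. No sequences were used here.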

Additional observations from a re-analysis of the deposited data

How the results depend on the processing

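Of the 31 called members, DESeq2 and scaling by DESeq2's size factors kept 31, no filter 30, limma on FPKM 29 with either pseudocount, the gene length offset 28, library size alone 27, and leaving out a library 26 to 30. None changed sign. The labels do not say whether the same replicate number pairs the libraries. Correlations of deviations between equal numbers were 0.096, -0.049 and 0.028, which cannot settle it with 3 libraries a group. With the replicate number as a block 14348 genes, 10 higher and 16 lower peroxidases and 1 higher and 4 lower laccases were called, 29 of the 31 were kept, and LOC100192482 (0.31) and LOC100216632 (-1.72) passed.

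Library size alone moved the median of all genes tested to -0.30, the peroxidase sum to 0.0903, the peroxidase counts to 8 higher and 17 lower, the laccase sum to -2.59, higher laccases to 0, higher monolignol genes to 9 and higher Casparian strip genes to 2. The length offset gave 3 higher Casparian strip genes and 2 higher multicopper oxidases, with 9 higher and 14 lower peroxidases, and no filter gave 2 higher and 6 lower laccases and 16 higher and 19 lower peroxidases. Leaving out a library gave 13516 to 14506 called genes, 9 to 14 higher and 14 to 17 lower peroxidases, 0 to 1 higher laccases (0 without WT replicate 2, WT replicate 3 or shrek1 replicate 1), 4 lower laccases throughout, and sums of 0.29 to 0.48 (peroxidases) and -2.36 to -2.17 (laccases).

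Reversed signs were confined, among the 47 tested members, to 5 that did not pass. Library size alone turned LOC103638909 (-0.21) and LOC100279673 (-0.23), and the length offset turned LOC100279673 (-0.053). Leaving out a library gave ranges across 0: -0.40 (without shrek1 replicate 1) to 0.16 (without shrek1 replicate 3) for LOC107457598, -0.28 (without WT replicate 3) to 0.44 for LOC103638909, -0.12 (without WT replicate 1) to 0.20 for LOC100279673, -0.27 to 0.042 (without shrek1 replicate 2) for LOC109940806 and -0.88 to 0.30 (without shrek1 replicate 3) for LOC100191304. The causes were not tested. Depth limits the 64 members with counts but no test.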
